A study of Mus musculus with 2 samples.

Results

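The miR-183/96/182 cluster is a set of 3 microRNA genes, Mir183, Mir96 and Mir182, that lie beside each other on mouse chromosome 6. They were followed here in microRNA-seq of heart tissue from female B6CASTF1/J mice aged 18 to 20 months. The cross has C57BL/6J and CAST/EiJ parents. The members are the 3 rows of the count tables with these symbols in GENCODE M21, out of 2202 microRNA genes. They were picked with their levels and their ratio between the libraries already known, so those values are given as a description and carry no test. There was 1 group with 2 libraries, called replicate 1 and replicate 2 after the labels' biological replicate numbers, and no second condition. The labels give the libraries separate tissue records but the same donor record, so each SD below measures the spread between these libraries, which may be technical. Such a group holds whole heart tissue with no sorting of cells, and no younger animals to set it against.

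MicroRNAs are cut from hairpin transcripts and guide silencing proteins to messenger RNAs, mainly through bases 2 to 8 of the mature strand, the seed. The miR-183/96/182 cluster is known as a group of sensory organ microRNAs, made together from a single primary transcript in photoreceptors, hair cells of the inner ear, and olfactory and somatosensory neurons. Changes in the seed of miR-96 cause progressive hearing loss in mice and humans. The cluster is also found in several epithelia, and miR-182 is induced in activated helper T cells of the mouse, where it acts on Foxo1. It is not one of the microRNAs by which heart muscle is usually defined.

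Replicate 2 held 3676084 sense counts on microRNA genes and replicate 1 held 3383676. Genes with 10 counts or more in both libraries numbered 316 and are called detected below. The heart muscle genes Mir499 and Mir208a, which lie in cardiac myosin genes, had 3567 and 1247 CPM (counts per 1000000 sense gene counts) in replicate 2, and 3977 and 1588 CPM in replicate 1. Both libraries thus carried the defining markers of the labelled tissue.

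The members share a strand and a short stretch of the chromosome. In mm10, on the minus strand, Mir183 lies at chr6:30169668-30169737, Mir96 at chr6:30169446-30169551 and Mir182 at chr6:30165918-30165992. The whole spans 3820 bases. Transcription runs through Mir183 first, then Mir96 after a gap of 116 bases, then Mir182 after 3453 bases. No other GENCODE M21 gene overlaps this span. Its nearest neighbours are Rncr4, a lincRNA on the plus strand that begins 3155 bases away on the Mir183 side, and Nrf1, a protein-coding gene for a transcription factor of mitochondrial and housekeeping genes, whose end lies 12459 bases away on the Mir182 side. The nearest other microRNA genes are Gm23049 and Mir335, at 177428 and 571561 bases. RefSeq, on GRCm38.p6, places all 3 hairpins inside the lncRNA Mirc35hg (chr6:30158640-30174125, minus strand), the annotated host transcript.

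The hairpins are shown because the deposited counts are per hairpin and do not separate its arms. All 3 were found in RefSeq (GRCm38.p6), with the same letters as the GENCODE M21 transcripts. Capitals mark the 5p arm and then the 3p arm.
Mir183 hairpin: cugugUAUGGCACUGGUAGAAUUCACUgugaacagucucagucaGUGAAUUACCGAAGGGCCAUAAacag
Mir96 hairpin: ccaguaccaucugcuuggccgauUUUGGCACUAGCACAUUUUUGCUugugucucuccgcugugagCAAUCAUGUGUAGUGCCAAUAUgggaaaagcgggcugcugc
Mir182 hairpin: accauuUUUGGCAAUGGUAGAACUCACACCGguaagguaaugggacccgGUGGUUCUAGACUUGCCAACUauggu
The Mir183 hairpin is 70 bases long, that of Mir182 75 and that of Mir96 106. No stretch of more than 14 bases of any of them recurs, on either strand, in another GENCODE microRNA hairpin. The 3 members are thus outside the 1087 genes that share 20 bases or more with another microRNA locus, for which reads that map to several places would be lost from the counts. The rest of the genome was not searched for copies.

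The mature 5p strands are shown with the seed in capitals, because the members' seeds are near-copies of each other.
mmu-miR-183-5p: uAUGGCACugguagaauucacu
mmu-miR-96-5p: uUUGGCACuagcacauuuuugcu
mmu-miR-182-5p: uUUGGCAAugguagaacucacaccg
All 3 seeds hold the core UGGCA. Counting from 1 at the 5′ end, with the base of the strand named first written first, the seeds of miR-182-5p and miR-96-5p differ by A8C alone, those of miR-96-5p and miR-183-5p by U2A alone, and those of miR-182-5p and miR-183-5p by both U2A and A8C. Beyond the seed the likeness runs differently. Aligned from the 5′ end without gaps, miR-182-5p and miR-183-5p match at 18 of 22 bases and share the run UGGUAGAA from base 9. miR-96-5p matches miR-183-5p at 13 of 22 bases and miR-182-5p at 12 of 23.

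Among 1738 mature mouse sequences in the RefSeq table, the seeds of miR-183-5p and miR-182-5p occur nowhere else. The seed of miR-96-5p recurs once, in mmu-miR-1271-5p of the gene Gm24195 (chr13:54578113-54578249, plus strand).
mmu-miR-1271-5p: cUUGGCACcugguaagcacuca
Gm24195 had 0 counts in replicate 2, which allows up to 0.816 CPM, and 0 in replicate 1, which allows up to 0.887 CPM, each limit being set by 3 counts. The counts of Mir96, given below, were also at or under 3 in both libraries.

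Mir183, the first hairpin of the cluster, had the most counts. It had 272 sense counts in replicate 2, or 74.0 CPM (Wilson 95% interval 65.7 to 83.3). In replicate 1 it had 38, or 11.2 CPM (8.18 to 15.4). The mean was 42.6 ± 44.4 CPM (SD, n = 2). The SD is larger than the mean, because nearly all of the signal was in replicate 2. Intervals cover counting error only. They treat reads as separate molecules, and PCR copies, which cannot be recognised without molecular identifiers, would make them too narrow. In whole tissue, fewer cells that make a microRNA and less of it per cell cannot be told apart.

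Mir182, the last hairpin, followed closely. It had 227 sense counts in replicate 2, or 61.8 CPM (54.2 to 70.3), and 20 in replicate 1, or 5.91 CPM (3.83 to 9.13), with a mean of 33.8 ± 39.5 CPM (SD, n = 2). Mir182 stood below Mir183 in both libraries. The means lay far closer together than either SD, but both SDs hold the same difference between the libraries. The genes are therefore compared within each library below. The 2 genes took rank 174 (Mir183) and rank 189 (Mir182) by mean CPM among the 316 detected genes, below the median detected gene at 62.2 CPM.

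Mir96, the middle hairpin, was close to absent from the counts. It had 2 sense counts in replicate 2, or 0.544 CPM (0.149 to 1.98). In replicate 1 it had 0, where the 3-count limit is 0.887 CPM and the Wilson interval reaches 1.14 CPM. Both counts of Mir96 lie at or under 3, so no fold between the libraries is given. In replicate 2 Mir183 had 136 times the counts of Mir96 (exact 95% interval 37.3 to 1129). The gap between these hairpins is 116 bases. Replicate 1 could not have shown a like gap: with the share of Mir96 in replicate 2, 0.399% of the cluster's counts, 0.232 counts would have fallen to it there.

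**Figure D1:**
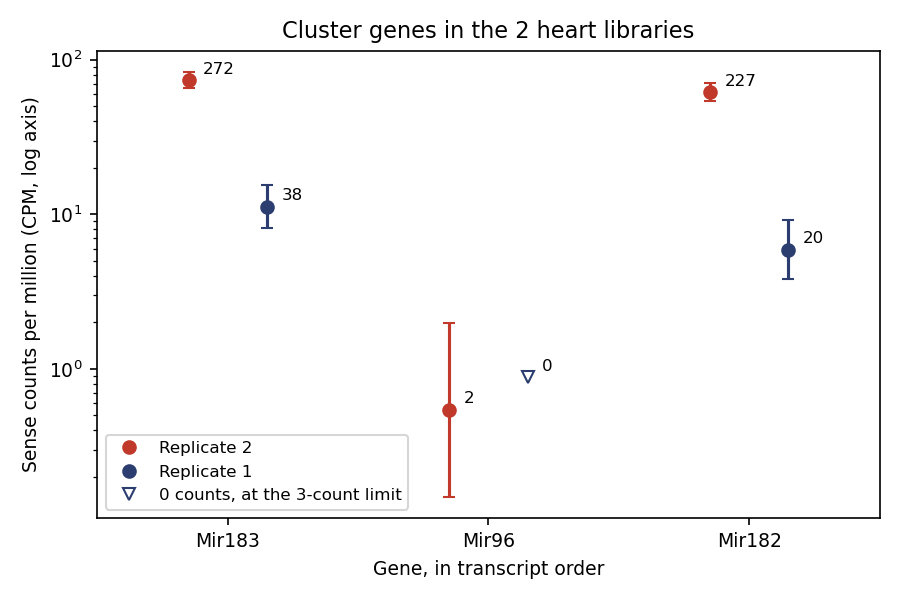
Sense CPM (log axis) of the 3 cluster genes in transcript order, with replicate 2 left of replicate 1 for each gene. Bars are Wilson 95% intervals, numbers are counts, and the open triangle stands for 0 counts at the 3-count limit. Mir183 and Mir182 lie higher in replicate 2, at 74.0 and 61.8 CPM, than in replicate 1, at 11.2 and 5.91 CPM, and Mir96 lies near or under 1 CPM.

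The level along the cluster can be read within a library, where no scaling between libraries enters. In replicate 2 the counts of Mir182 were 0.835 times those of Mir183 (exact 95% interval 0.697 to 0.999), and in replicate 1 they were 0.526 times as many (0.290 to 0.928), with a mean of 0.680 ± 0.218 (SD, n = 2). The intervals of the libraries overlap, and both lie below 1, that of replicate 2 only just and each for counting error alone. Mir183 held 54.3% of the cluster's counts in replicate 2 and 65.5% in replicate 1, and Mir182 held 45.3% and 34.5%. These ratios compare counts of hairpins of like length, and they say nothing of differences in how well each mature strand enters a library.

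**Figure D2:**
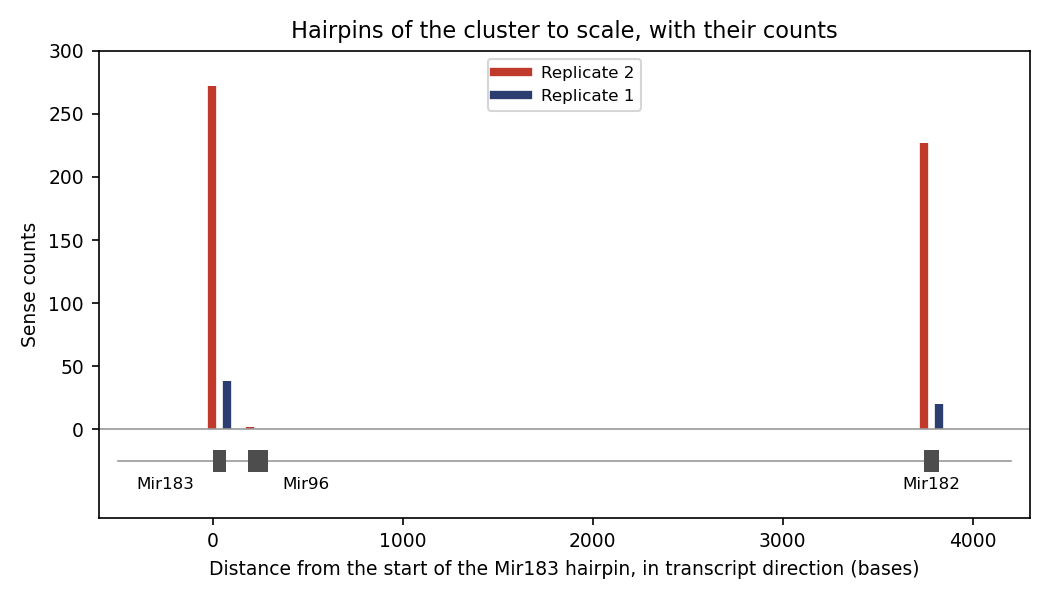
The 3 hairpins to scale along the transcript (x axis, bases from the start of the Mir183 hairpin), with each hairpin's sense counts as bars from 0 (y axis), replicate 2 left of replicate 1. Mir183 and Mir182, at the ends of the cluster, carry 272 and 227 counts in replicate 2 and 38 and 20 in replicate 1, and Mir96, next to Mir183, carries 2 and 0.

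Reads on the opposite strand were nearly lacking at the locus. The antisense column held 1 count for Mir183 in replicate 2 and 0 in replicate 1, and 0 for Mir96 and Mir182 in both libraries. Counts on either strand were accordingly 273 for Mir183 and 227 for Mir182 in replicate 2, and 38 and 20 in replicate 1. The annotation places no gene on the opposite strand of the hairpins, so strand did not divide these reads between genes.

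Together the members had 501 counts in replicate 2, or 0.0136% of its sense gene counts (Wilson 95% interval 0.0125 to 0.0149). In replicate 1 they had 58, or 0.00171% (0.00133 to 0.00222). The mean share was 0.00767% ± 0.00842 (SD, n = 2). Mir183 and Mir182 were both higher in replicate 2. Mir183 was 6.05-fold higher (exact 95% interval 4.30 to 8.73; log2 ratio 2.60) and Mir182 9.59-fold higher (6.06 to 16.0; log2 ratio 3.26), on counts scaled by TMM, edgeR's trimmed mean of M-values. The sum over the cluster was 7.30-fold higher (5.55 to 9.75; log2 ratio 2.87). These intervals overlap one another and set the libraries against counting error alone.

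Against this stands the background of all genes. Of the 316 detected genes, 33 were at least 2-fold higher in replicate 2, which is 10.4%, and 37 were at least 2-fold higher in replicate 1, which is 11.7%. Both detected members are among the 33. Scaled by library totals the split becomes 43 and 28, and the median log2 ratio over detected genes, 0.05 with TMM, becomes 0.18. A level at least 4-fold higher in replicate 2 was shown by 12 genes, or 3.8%, and at least 4-fold higher in replicate 1 by 6, or 1.9%. Both members are among the 12. Since the members were chosen for this ratio, nothing is read from their place in it. A larger log2 ratio than that of Mir182 was shown by 2 detected genes, Mir26a-1 and Mir34c.

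**Figure D3:**
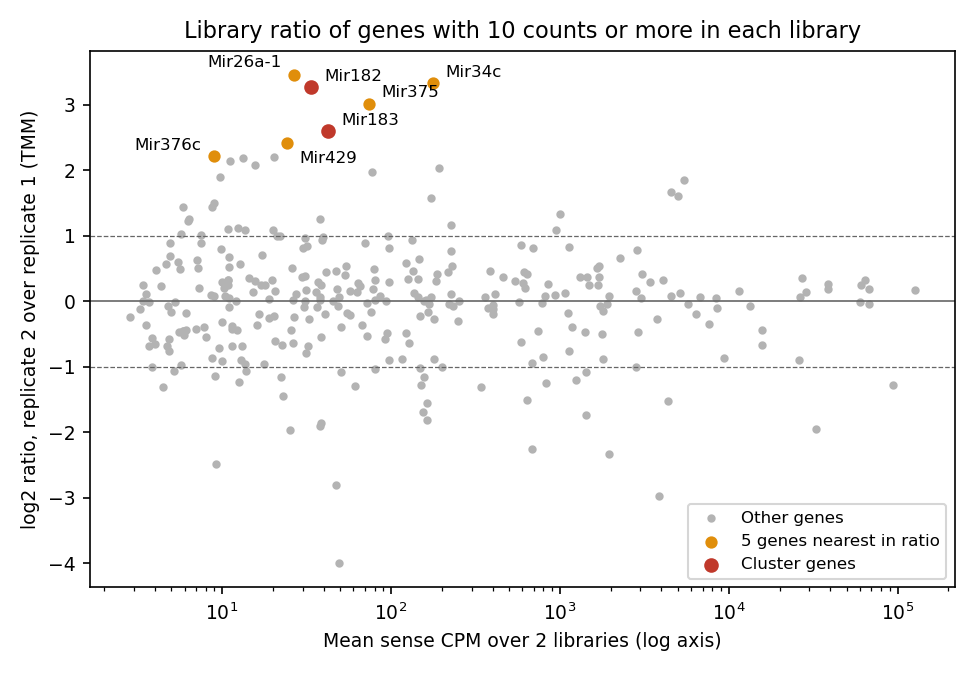
Each of the 316 detected genes by its mean CPM (x axis, log scale) and its log2 ratio of replicate 2 over replicate 1 after TMM scaling (y axis). Dashed lines mark 2-fold. Mir182 (3.26) and Mir183 (2.60) lie near the upper edge at a middle to low level, beside the 5 genes nearest to the summed cluster in ratio.

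The 4 genes next to the members by level lay within 2-fold between the libraries. Mir503, just above Mir183, had 47.6 CPM in replicate 2 and 43.7 in replicate 1, and Mir32, just below it, had 49.2 and 33.1 CPM. Mir200b, just above Mir182, had 39.2 and 32.5 CPM, and Mir3068, just below it, had 31.0 and 34.6 CPM. Their means of 45.7 ± 2.73, 41.2 ± 11.4, 35.8 ± 4.71 and 32.8 ± 2.52 CPM (SD, n = 2 each) do not stand apart from those of Mir183 or Mir182 beyond the members' own spread, so the order of levels is not resolved. The log2 ratios of these 4 genes ran from -0.28 to 0.45. They do not stand for all genes at this level. Mir215, at a mean of 49.1 CPM, had a log2 ratio of -4.00, and Mir449a, at 37.8 CPM, had 1.26.

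The 5 detected genes whose log2 ratio lay nearest to that of the summed cluster, over the same 2 libraries, were Mir375, Mir429, Mir34c, Mir26a-1 and Mir376c. Mir375, a microRNA of endocrine and some epithelial cells, had 488 counts in replicate 2 and 51 in replicate 1 (log2 ratio 3.01, 95% interval 2.60 to 3.46). Mir429, of the epithelial miR-200 family, had 152 and 24 counts (2.42, 1.79 to 3.11). Mir34c, known from multiciliated cells and testis, had 1188 and 100 counts (3.33, 3.03 to 3.64). Mir26a-1 had 181 and 14 counts (3.45) and Mir376c had 55 and 10 (2.22), and both of these share 20 bases or more with another locus, so their counts are uncertain. With 2 libraries, likeness in this measure is likeness in a single number.

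Several epithelial microRNAs had library ratios of the same sign as the cluster. The miR-200 family, markers of epithelial cells, had 381 CPM in sum in replicate 2 and 129 in replicate 1. Of its 5 genes, all detected, 4 were at least 2-fold higher in replicate 2 and none in replicate 1, with a median log2 ratio of 1.89. Besides Mir429 these were Mir141 (log2 ratio 2.19), Mir200a (1.89) and Mir200c (1.57), while Mir200b had a log2 ratio of 0.15. For comparison, over all detected genes the median was 0.05, with 10.4% at least 2-fold higher in replicate 2 and 11.7% in replicate 1. The same shares apply to the list counts below. Listed genes that lie close together, such as Mir141 and Mir200c, are not separate units.

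Markers of stratified and of multiciliated epithelium had ratios of the same sign. Mir203, a microRNA of skin and other stratified epithelia, had 1158 counts in replicate 2 and 239 in replicate 1, and Mir205 had 106 and 5, below the detection minimum in replicate 1. In sum these 2 genes had 344 and 72.1 CPM. Of the 5 genes of the multiciliated list, the 3 detected, Mir34c, Mir34b and Mir449a, were all at least 2-fold higher in replicate 2 (median log2 ratio 1.49), and Mir449b and Mir449c had 0 counts in both libraries. The list had 391 CPM in sum in replicate 2 and 55.0 in replicate 1. The part of these cell types in the higher counts of Mir183 and Mir182 was not tested.

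Other lists shared the pattern only in part, did not share it, or ran against it. The gut and liver epithelial list (Mir122, Mir192, Mir194-1, Mir194-2 and Mir215) had 59.0 CPM in sum in replicate 2 and 196 in replicate 1. Of its 5 genes 4 were at least 2-fold higher in replicate 1, so that epithelial genes did not all stand higher in replicate 2. The endocrine list was divided: besides Mir375, Mir7-1 had a log2 ratio of 0.57 and Mir7b of -0.45. Of the microRNAs of retina and pigment epithelium, which a sensory microRNA might be set beside, Mir211 had a log2 ratio of 1.11 and Mir204 of 0.12. The neuronal list of 11 genes had 269 CPM in sum in replicate 2 and 270 in replicate 1. Its 5 detected genes lay within 2-fold, and 5 more had 0 counts in both libraries, although 10 of the 11 share a stretch with another locus.

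Blood and vessel markers also differed between the libraries. The leukocyte list had 16363 CPM in sum in replicate 2 and 8644 in replicate 1. Of its 5 genes 3, Mir150, Mir223 and Mir142, were at least 2-fold higher in replicate 2, and the median log2 ratio of the list was 1.09. The remaining genes, Mir155 and Mir146, lay within 2-fold. Mir155 had a log2 ratio of 0.07, with 4882 CPM in replicate 2 and 4266 CPM in replicate 1. Mir146, which shares a stretch with another locus, had a log2 ratio of 0.54. The erythroid list had 1938 and 4182 CPM, with 2 of 3 genes at least 2-fold higher in replicate 1 (median log2 ratio -1.20). Mir126a, the endothelial marker, had a log2 ratio of -1.28. The 3 heart muscle genes had 4831 CPM in sum in replicate 2 and 5624 in replicate 1, with a median log2 ratio of -0.47, and Mir208b, at 63 and 200 counts, was the 1 gene among them past 2-fold. The part of blood cells in the ratio of the cluster was not tested.

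**Figure D4:**
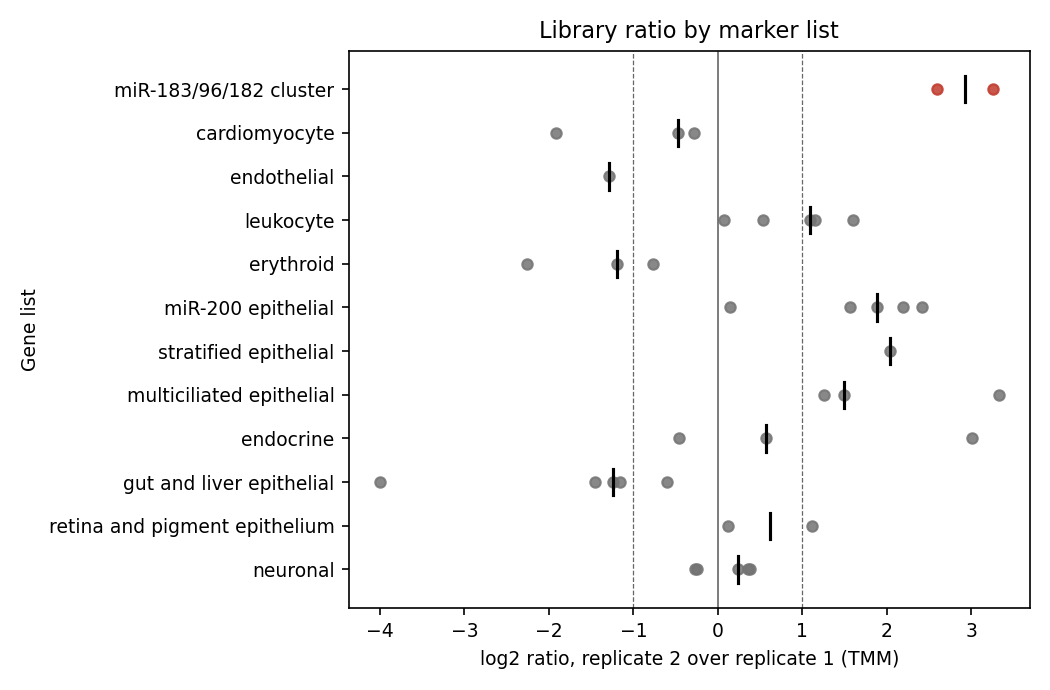
Log2 ratio of replicate 2 over replicate 1 (x axis, TMM) of each detected gene in the cluster and in 11 marker lists (rows). Vertical ticks are list medians and dashed lines mark 2-fold. The cluster's 2 detected genes lie at 2.60 and 3.26. All detected leukocyte, miR-200, stratified epithelial, multiciliated epithelial, and retina and pigment epithelium genes lie above 0, all detected heart muscle, endothelial, erythroid, and gut and liver epithelial genes lie below 0, and the endocrine and neuronal genes lie on both sides.

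Genes of a shared transcript may differ in count and in ratio, so the cluster was set beside other clusters, defined as microRNA genes on 1 strand within 10000 bases of the next. The log2 ratios of Mir182 and Mir183 differed by 0.67. In 31 other clusters with exactly 2 detected genes, the same difference had a median of 0.38 and ran from 0.00447 (Mir341 and Mir370) to 2.76 (Mir194-1 and Mir215). It was smaller than 0.67 in 20 of the 31 and larger in 11. In 16 of the 31, Mir194-1 and Mir215 among them, a gene shares 20 bases or more with another locus and its counts are uncertain. The other 15 had a median of 0.38 and a highest value of 2.35 (Mir497 and Mir195a). As the members were chosen with their ratios known, these values are a description only. Mir141 and Mir200c, for example, differed by 0.62, and Mir34c and Mir34b by 1.83. These differences include counting error, which is wide for genes with few counts.

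The low count of Mir96 can be placed in the same way. Over both libraries it had 0.645% of the counts of Mir183. Among 23 other clusters with no shared stretch and at least 100 counts for the highest gene, the lowest gene had a median of 5.35% of the highest, and it was under 1% in 5 clusters. In 4 of these it was at 0: Mir449b beside Mir449a, and the Gm-named genes Gm24572, Gm24155 and Gm27320 beside Mir1306, Mir137 and Mir328. In the cluster of Mir130b and Mir301b it was 0.704%. A smaller share than that of Mir96 was thus seen in 4 of the 23 other clusters.

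The promoter of the annotated host transcript is shown as the place from which RefSeq starts the RNA that holds all 3 hairpins. It is Mirc35hg, chr6:30174076-30174375 on the minus strand (GRCm38.p6), and its start lies 4388 bases ahead of Mir183. The same bases lie inside the plus-strand lincRNA Rncr4 (chr6:30172893-30175126) of GENCODE M21, so they do not belong to the host transcript alone. Capitals mark each CG.
Mirc35hg promoter: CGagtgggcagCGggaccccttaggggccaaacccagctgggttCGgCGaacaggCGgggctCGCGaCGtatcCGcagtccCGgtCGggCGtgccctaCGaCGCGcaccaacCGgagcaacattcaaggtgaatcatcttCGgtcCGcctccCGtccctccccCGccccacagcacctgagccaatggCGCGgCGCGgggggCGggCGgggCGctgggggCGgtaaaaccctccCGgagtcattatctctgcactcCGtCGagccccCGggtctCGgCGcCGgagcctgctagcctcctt
The 300 bases hold 35 CG pairs, against a median of 7 over 32851 promoters of the same length, and 93.0% of these held fewer. Their G and C content was 70.3%, against a median of 52.7%. On either strand, neither CACGTG, found in 7.15% of all promoters, nor TATAAA, found in 13.6%, is present in these letters. No deposited value used here measures activity at this promoter.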

How the data were processed

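MicroRNA-seq was done on 2 libraries of total RNA from heart tissue. The values in the deposited tables are raw counts for each microRNA gene, in columns for either strand, sense and antisense, as the numbers themselves show. The libraries' deposited readme texts name mm10 as assembly and GENCODE M21 as annotation. Aligner and counter: not given in the sources used here. The 4 rows that name no gene (unmapped, multimapping, no feature, ambiguous) held 65.2% of the reads of replicate 2 and 63.9% of those of replicate 1 and were left out. Reads came from a cross and were counted on mm10, so CAST/EiJ variants may lower a count, which was not tested.

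Sense counts were used. CPM was taken on sense gene totals, and ratios on TMM-scaled totals from the 316 genes with 10 counts or more in each library (edgeR 4.0.16, R 4.3.3). With 1 group and members chosen by level and ratio, no test was made. Intervals are Wilson or exact (scipy 1.17.1, Python 3.11.15). The calculation of ratios was also run on simulated counts that held counting error alone. Such counts lack any further spread between libraries, so they say nothing of the spread seen here. Alternatives were other scalings (DESeq2 1.42.0 size factors, library totals, TMM over all genes), the either-strand column, other minimum counts, other denominators and each library left out. Members, lists, and the rule for named genes were chosen with earlier results of these data known. The rule names the members, the 5 detected genes nearest in ratio, level neighbours, genes sharing a seed, the listed markers and the nearest annotated genes. Other genes were named after their values were seen, as was the cluster comparison.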

Additional observations from a re-analysis of the deposited data

How the results depend on the processing

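The log2 ratios of Mir183, Mir182 and their sum kept their sign and stayed within their counting intervals with library totals, DESeq2 size factors, TMM over all genes and the either-strand column, running from 2.54 to 2.72 for Mir183, from 3.21 to 3.39 for Mir182 and from 2.81 to 2.99 for the cluster. The count of genes 2-fold or more apart was 70 of 316. Under these alternatives and a minimum of 5 counts it ranged from 64 of 294 (either-strand column) to 88 of 362 (minimum of 5 counts). At 100 counts or more in each library it was 32 of 181, with 9 higher in replicate 2 and 23 higher in replicate 1, against 33 and 37 at 10 counts. This is a minimum that neither Mir183 nor Mir182 reached in replicate 1. The mean share of the cluster, 0.00767%, was 0.00171% in replicate 1 alone and 0.0136% in replicate 2 alone, so replicate 2 decides it. It was 0.0101% of either-strand counts, 0.00268% of all reads and 0.0111% of the counts of genes with no shared stretch. Mir182 over Mir183 was 0.679 with either-strand counts. Clusters defined within 50000 bases, chosen after seeing the data, gave a median difference of 0.46 over 31 other clusters, smaller than that of Mir182 and Mir183 in 18. No log2 ratio of Mir96 was given under any setting, as both counts were at or under 3. Depth limits Mir96 in both libraries and Mir182 in replicate 1. No paired analysis was possible because there is 1 group.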
